A study of Mus musculus with 22 samples.

Results

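Oocyte identity genes are 10 mouse genes whose known work is done in the egg: the zona pellucida genes Zp1, Zp2 and Zp3, the ligand genes Gdf9 and Bmp15, the transcription factor genes Figla and Nobox, the secreted protein gene Oosp1, and the chromatin protein genes H1foo and Npm2. They were found by their symbols in a table of RNA levels, and all 10 symbols were among its 55335 genes. The libraries came from embryos of B6D2F1 female mice mated with B6D2F1 males, and each was made from the polyadenylated RNA of 15 embryos with Smart-seq2, a method that amplifies full-length cDNA, over 16 to 18 cycles of preamplification before paired sequencing of 150 bp. The study asked what depletion of the histone variant H2A.Z does to gene expression in the early embryo. Zygotes of the H2A.Z knockdown (KD) groups had received about 10 pl of a mix of 3 siRNA pairs at 20 µM, by injection at 20 to 22 h after hCG. Controls of the qPCR in the same study were noninjected, and whether this holds for the control embryos of these libraries is not stated.

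There were 4 control and 3 KD libraries of 2-cell embryos (44 h after hCG), 4 control and 3 KD libraries of morulae (78 h), and 4 control and 4 KD libraries of blastocysts (94 h), 22 in all. Replicate numbers, taken from the sample titles, were 1, 2, 4 and 5 for 2-cell control and 1, 2 and 4 for 2-cell KD, then 1, 2, 7 and 8 for morula control and 1, 2 and 6 for morula KD, and 1, 4, 5 and 6 in both blastocyst groups. Libraries are listed in these orders throughout. The replicates are not stated to come from separate animals or cultures, so a p-value here measures the spread between libraries. The zona pellucida had been taken off with pronase before lysis, a step that touches protein outside the cells. Levels are FPKM, fragments scaled by transcript length and by the total of mapped fragments, so that levels of different genes can be compared. The files hold no counts, so the number of reads behind a value is unknown and no counting interval is given. Between 24481 and 29177 genes were above 0 in a library, and between 10143 and 12090 reached 1 FPKM.

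The mammalian oocyte grows inside a follicle while it makes a coat of zona pellucida glycoproteins, secretes growth factors to the granulosa cells around it, and stores RNA and protein for the embryo. Transcription stops before ovulation, and much of the stored maternal RNA is cleared after meiosis resumes and again when the embryo turns on its own genome, which in the mouse happens mainly at the 2-cell stage. Transcripts of oocyte genes in cleavage embryos are therefore commonly read as what remains of a maternal store.

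The knockdown target was checked first. H2afz, one of the genes that encode H2A.Z, stood at 1244, 1236, 905 and 1178 FPKM in 2-cell control and at 415, 139 and 112 FPKM in 2-cell KD. It was at 1158 to 1511 FPKM in morula control against 25.7 to 30.3 FPKM in morula KD, and at 1945 to 2656 FPKM in blastocyst control against 53.2 to 67.2 FPKM in blastocyst KD. At all 3 stages the KD libraries of H2afz lay below the controls without overlap. H2afv, which encodes the other H2A.Z protein, was at 96.8 to 118 FPKM in 2-cell control and 83.7 to 97.6 FPKM in 2-cell KD, then 92.5 to 113 against 9.90 to 12.9 FPKM in morulae and 49.9 to 63.5 against 10.6 to 19.9 FPKM in blastocysts, so that its groups overlapped at the 2-cell stage alone. In limma, 0 of these 2 genes were called at the 2-cell stage, where H2afz had a log2 fold change of −2.53 (SE 0.38, unadjusted p = 4.48e-05, adjusted p = 0.544) and was the 1 gene of the pair at an unadjusted p under 0.05, and both were called in morulae and in blastocysts. H2afz had a log2 fold change of −5.41 in morulae (limma adjusted p = 9.72e-08) and −5.19 in blastocysts (limma adjusted p = 3.63e-08).

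Marker genes of the stages were summed in each library. The summed level of 5 markers of the 2-cell embryo was 168 to 242 FPKM in 2-cell control, 1.46 to 6.03 FPKM in morula control and 0.291 to 0.964 FPKM in blastocyst control. The 8 blastocyst lineage markers summed to 3.74 to 12.5 FPKM in 2-cell control, 167 to 274 FPKM in morula control and 1087 to 1583 FPKM in blastocyst control. Of the 5 tested between the 2-cell stage and the morula, 4 rose and Gata4 fell (log2 fold change −2.14, limma adjusted p = 0.000586), so the sum does not stand for every gene of the list.

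The oocyte genes spanned a wide range in 2-cell control embryos. Oosp1 was highest, at 652 ± 110 FPKM (SD, n = 4), the 60th highest mean of all genes in the table, and Bmp15 followed at 130 ± 10.3 FPKM, in place 414. Npm2 (44.1 ± 5.61 FPKM), H1foo (41.8 ± 11.5 FPKM), Zp3 (40.1 ± 0.599 FPKM) and Gdf9 (36.1 ± 8.82 FPKM) came next, and each overlapped its neighbour in this order. Zp2 (11.7 ± 1.90 FPKM), Zp1 (8.06 ± 2.90 FPKM) and Nobox (5.86 ± 1.61 FPKM) formed a lower group whose neighbours also overlapped. Figla stood apart from the rest at 0.0796 ± 0.103 FPKM. Oosp1 and Bmp15, Bmp15 and Npm2, Gdf9 and Zp2, and Nobox and Figla were the neighbours whose libraries did not overlap.

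The order differed at later stages. In morula control, Zp3 (4.72 ± 1.52 FPKM) and Npm2 (3.27 ± 0.807 FPKM) were highest and overlapped each other, Oosp1 came next at 1.39 ± 0.566 FPKM, and the other members had means below 1 FPKM. In blastocyst control, Zp3 led at 1.48 ± 0.313 FPKM without overlap with the next gene, Figla, at 0.300 ± 0.265 FPKM. The summed level of the 10 genes was 833 to 1103 FPKM in 2-cell control, 8.60 to 12.9 FPKM in morula control and 2.25 to 3.66 FPKM in blastocyst control.

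**Figure D1:**
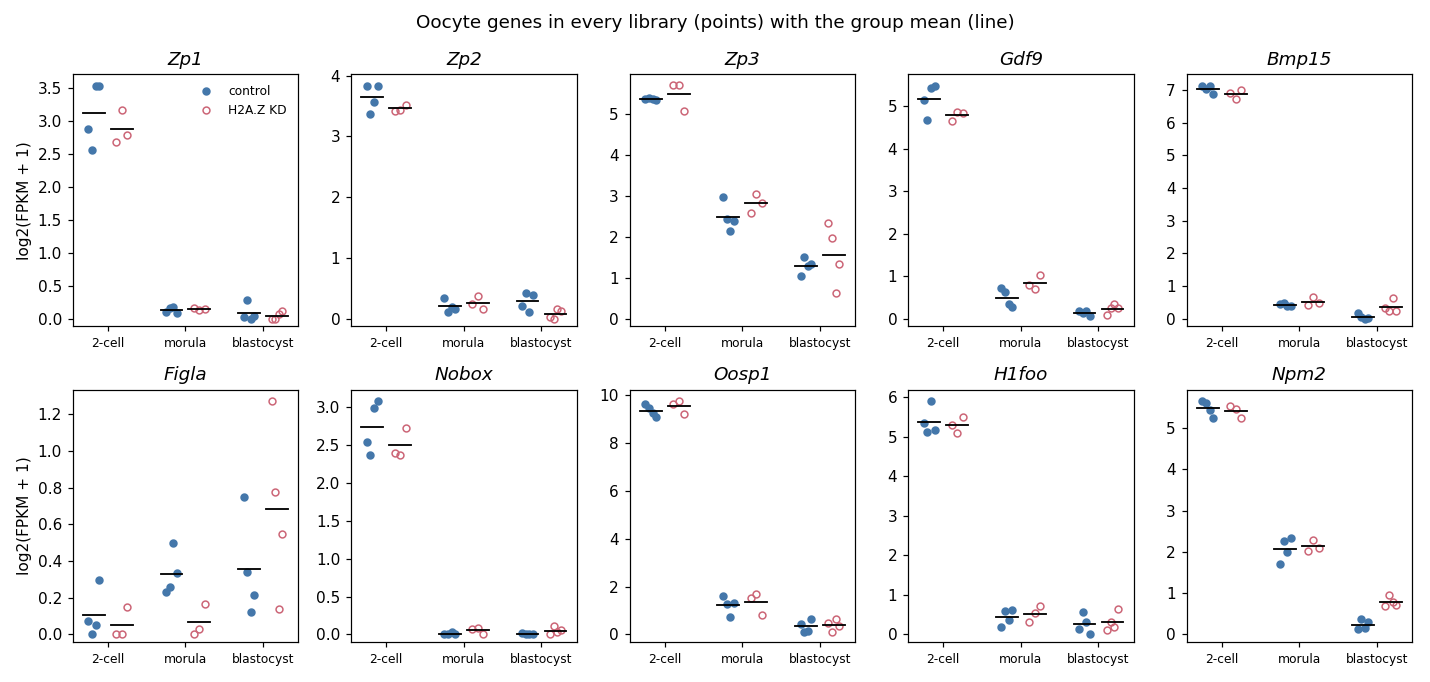
Level of each oocyte gene in every library, as log2(FPKM + 1), by stage, with filled points for control, open points for H2A.Z KD and a line at the mean of each group. Of the 10 genes, 9 are highest at the 2-cell stage, where Oosp1 reaches 530.0 to 778 FPKM in control libraries, and Figla is at most 1.41 FPKM in any library.

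The first comparison asked how far the genes fell between stages in control embryos. In the limma fit, genes with at least 1 FPKM in at least 3 libraries were tested, and a gene was called at an adjusted p under 0.05 with an absolute log2 fold change above 1. Between the 2-cell stage and the morula, 9 of the 10 members could be tested, and all 9 fell, in a comparison where 30.3% of 13655 genes were called lower (4141 genes). Of the 9, 6 reached the filter through their 2-cell libraries alone, so a fall was the direction open to them. The count is a description, and so is the median given below. Zp3, Npm2 and Oosp1 reached it in morulae as well. Fitted fold changes rest on the constant of 1 added before the logarithm, which understates falls to levels near or below 1 FPKM. Their median log2 fold change was −3.45, against 0.097 over all genes tested. When each library was scaled to the same sum, the median over all genes moved to −0.23, and the same number of members was called. Libraries were made from polyadenylated RNA, so these falls are in that RNA, and RNA without a poly(A) tail was not measured. Less RNA per cell and fewer cells that hold a transcript cannot be told apart in pools of whole embryos.

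Zona pellucida genes encode the coat that sperm bind and that blocks further sperm after fertilization. Zp3, a structural glycoprotein of that coat, was at 40.1, 41.0, 40.0 and 39.5 FPKM in 2-cell control, at 6.90, 4.39, 3.39 and 4.21 FPKM in morula control and at 1.08, 1.84, 1.46 and 1.54 FPKM in blastocyst control. Every library of a later stage lay below every library of the stage before it. The fall was −2.89 on the log2 scale to the morula (SE 0.17, limma adjusted p = 1.65e-08) and −1.24 more to the blastocyst (SE 0.17, limma adjusted p = 8.42e-05). Morula control kept 11.8% of the 2-cell mean of Zp3, and blastocyst control 3.69%, the highest shares among the 9 members that fell.

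The other zona genes left smaller shares. Zp1, which cross-links zona filaments, was at 6.34, 4.87, 10.5 and 10.5 FPKM in 2-cell control and at 0.0725, 0.120, 0.131 and 0.0639 FPKM in morula control, 1.202% of the 2-cell mean. Zp2, which is cleaved after fertilization, was at 13.1, 9.31, 10.9 and 13.2 FPKM in 2-cell control and at 0.272, 0.0805, 0.151 and 0.122 FPKM in morula control, 1.34% of the 2-cell mean. Both fell without overlap of libraries, by a log2 fold change of −2.99 for Zp1 and −3.45 for Zp2, which became −5.32 and −5.57 with a constant of 0.1. In the next step, the blastocyst control libraries of Zp2 held 0.161, 0.345, 0.0834 and 0.317 FPKM, which overlap those of the morula.

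Gdf9 and Bmp15 encode ligands of the TGF-beta family that the oocyte secretes to its granulosa cells. Bmp15 was at 138, 128, 138 and 116 FPKM in 2-cell control, at 0.381, 0.393, 0.318 and 0.303 FPKM in morula control and at 0.138, 0.0440, 0 and 0.0177 FPKM in blastocyst control. Its libraries are far apart between the 2-cell stage and the morula and lower again in the blastocyst, with a log2 fold change of −6.60 for the first step (SE 0.15, limma adjusted p = 2.74e-11). Gdf9 stood at 34.1, 24.4, 42.1 and 43.7 FPKM in 2-cell control, 0.653, 0.550, 0.278 and 0.209 FPKM in morula control, and 0.142, 0.0964, 0.143 and 0.0535 FPKM in blastocyst control. Its groups did not overlap at any step, and the log2 fold change to the morula was −4.69. The share of the 2-cell mean left in the morula was 0.268% for Bmp15 and 1.17% for Gdf9, and in the blastocyst it was 0.0383% and 0.301%. Without blastocyst control replicate 1 that of Bmp15 was 0.0158%.

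Transcription factor genes differed from each other. Nobox, a homeobox factor needed for early follicles, was at 4.83, 4.16, 6.99 and 7.46 FPKM in 2-cell control, and in morula control it was listed at 0 in 3 libraries and at 0.0183 FPKM in replicate 7. Its fitted log2 fold change, −2.74, became −5.80 with a constant of 0.1. Figla, a basic helix-loop-helix factor that switches on the zona genes in the oocyte, was at 0.0512, 0, 0.0374 and 0.230 FPKM in 2-cell control, 0.173, 0.196, 0.411 and 0.259 FPKM in morula control and 0.683, 0.265, 0.0897 and 0.162 FPKM in blastocyst control. Figla was thus the single member that did not have its highest control level at the 2-cell stage. It did not reach the level needed for the test in any comparison, and without that filter the difference between the 2-cell stage and the morula was a log2 fold change of 0.23 (SE 0.087, limma adjusted p = 0.0656).

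Oosp1 encodes a secreted protein of the oocyte. Its 2-cell control libraries were at 778, 703, 597 and 530.0 FPKM, its morula control libraries at 2.01, 1.44, 0.635 and 1.46 FPKM, and its blastocyst control libraries at 0.350, 0.0691, 0.120 and 0.561 FPKM. The groups did not overlap, and the fall to the morula, a log2 fold change of −8.12 (SE 0.22, limma adjusted p = 4.24e-11), was the largest of the 9 tested on this scale. By the share left in the morula Nobox was lower, at 0.0781% of its 2-cell mean against 0.213% for Oosp1, a share that rests on the 1 morula library of Nobox above 0. From the morula to the blastocyst its log2 fold change was −0.91 (SE 0.19, limma adjusted p = 0.00147), short of the fold threshold. It passed that threshold when libraries were scaled to the same sum (−1.24), with an added constant of 0.1 (−2.16), without morula control replicate 7 (−1.09) and without blastocyst control replicate 6 (−1.001).

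H1foo encodes the linker histone of the oocyte, and Npm2 a nucleoplasmin, a histone chaperone that remodels sperm chromatin. H1foo was at 39.6, 34.0, 58.7 and 35.0 FPKM in 2-cell control and at 0.131, 0.499, 0.295 and 0.548 FPKM in morula control. Npm2 was at 49.4, 47.8, 42.0 and 37.2 FPKM in 2-cell control, 2.28, 3.81, 2.97 and 4.04 FPKM in morula control and 0.0873, 0.294, 0.109 and 0.237 FPKM in blastocyst control. These genes began at overlapping levels and then separated, since every morula control library of Npm2 lay above every one of H1foo. Morulae kept 7.42% of the 2-cell mean of Npm2 and 0.881% of that of H1foo, and blastocysts kept 0.412% and 0.500%, the latter 0.282% without blastocyst control replicate 4. Npm2 therefore lost most of its remaining level between the morula and the blastocyst, with a log2 fold change of −1.88 (SE 0.18, limma adjusted p = 5.06e-06) after −3.41 in the step before. With a constant of 0.1 the steps were of like size, −3.69 after −3.74.

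From the morula to the blastocyst, 3 members could be tested, and 2 of them, Zp3 and Npm2, fell. Npm2 and Oosp1 reached the filter through their morula libraries alone, so a fall was the direction open to them. The count is a description, and so is the median given below. In that comparison 12.9% of 11849 genes were called lower (1533 genes). The median log2 fold change of the 3 members was −1.24, against −0.025 over all genes. Scaling to the same sum moved the median of all genes to −0.12, and then all 3 members were called.

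A wider view gives the scale of these losses. In control 2-cell embryos 4409 genes had a mean of at least 10 FPKM, and their median share left was 77.4% in morula control and 61.6% in blastocyst control. Less than 5% was left in the morula for 13.1% of these genes, and in the blastocyst for 15.5%. The 4409 genes include 7 members, since Zp1, Nobox and Figla lie under 10 FPKM. Of these 7, 5 were below 5% in the morula (all but Zp3 and Npm2) and 7 in the blastocyst. Below 1% in the morula were 3 of the 7, Bmp15, Oosp1 and H1foo, against 6.99% of the 4409 genes. With each library scaled to the same sum the blastocyst shares were lower, at 2.46% for Zp3, 0.334% for H1foo, 0.277% for Npm2, 0.197% for Gdf9 and 0.0244% for Bmp15.

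The pattern over all 22 libraries was shared by most of the members. Pearson correlation of a member's log2(FPKM + 1) with the mean of the others lay between 0.953 (Zp3) and 0.996 (Bmp15) for 9 members, and was −0.479 for Figla. These values describe libraries that share stage and treatment and so are not independent. Among 4402 other genes of at least 10 FPKM in 2-cell control, those most like the mean of the members were the unnamed genes Gm45663 (r = 0.998), Gm36976 (r = 0.998), Gm44087 (r = 0.998) and Gm36958 (r = 0.998), and Rfpl4 (r = 0.998), each over 22 libraries. Rfpl4 had a mean of 299 FPKM in 2-cell control, 0.509 FPKM in morula control and 0.0645 FPKM in blastocyst control. Each of these genes had a higher mean in KD than in control blastocysts. The KD libraries were among the 22 used to choose the genes, so this direction is a description and no separate result. All of these blastocyst means were below 1 FPKM, and the differences were not tested. For Rfpl4 the mean was 0.150 FPKM in KD, and for Gm36958 it was 0.302 FPKM in KD against 0.0611 FPKM in control.

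The next comparison asked whether H2A.Z KD changed the oocyte genes at the 2-cell stage. Of the 10 genes, 9 could be tested and limma called 0 of them, in a comparison where 0% of 12160 genes were called and 701 (5.76%) had an unadjusted p under 0.05. H2afz, the check of the knockdown, was not called in this fit either (log2 fold change −2.53, limma adjusted p = 0.544). A count of 0 called here therefore does not show that a gene was unchanged. Of the 9 members, 0 had an unadjusted limma p under 0.05. The KD mean was lower than the control mean for 8 members and higher for Zp3 and Oosp1. Control and KD libraries overlapped for all 10 members, and 4.64% of 36609 genes above 0 had no overlap (1697 genes). The median log2 fold change of the 9 members was −0.090, against 0.0036 over all genes.

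Gdf9 had the largest difference of the tested members at this stage on the log2 scale. Its KD libraries were at 24.2, 28.2 and 27.6 FPKM, inside the lower part of the control range of 24.4 to 43.7 FPKM apart from the first, which lay just under it. The log2 fold change was −0.32 (SE 0.19), with an unadjusted limma p of 0.122 and an adjusted p of 0.828. Oosp1 was at 771, 848 and 592 FPKM in KD, a log2 fold change of 0.24 (SE 0.20, limma adjusted p = 0.850). Zp3 was at 51.2, 50.5 and 32.7 FPKM in KD, above the narrow control range of 39.5 to 41.0 FPKM in 2 libraries and below it in replicate 4, with a log2 fold change of 0.19 (SE 0.17, limma adjusted p = 0.867). Bmp15, at 119, 104 and 127 FPKM in KD, and Npm2, at 45.2, 43.5 and 37.2 FPKM, had log2 fold changes of −0.090 and −0.00057.

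The remaining members of the 2-cell comparison lay within their controls for the most part. KD libraries of Zp1 were at 5.42, 7.97 and 5.88 FPKM, those of Zp2 at 9.74, 9.81 and 10.5 FPKM, those of Nobox at 4.26, 4.17 and 5.64 FPKM and those of H1foo at 38.3, 33.3 and 43.9 FPKM. Their log2 fold changes lay between −0.19 (Nobox) and −0.023 (H1foo). Figla was listed at 0 in 2 KD libraries and was at 0.108 FPKM in replicate 4.

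Libraries of 2-cell control differed between ranges of replicate numbers over the whole table. Of 11859 genes with a mean of at least 1 FPKM there, 55.0% had replicates 4 and 5 both above or both below replicates 1 and 2, and of the 9 members at that level 6 did, a count near that share. Replicates 4 and 5 were higher than replicates 1 and 2 for Zp1, with means of 10.5 against 5.61 FPKM, for Gdf9, with 42.9 against 29.3 FPKM, and for Nobox, with 7.22 against 4.49 FPKM. Oosp1 went the other way, at 563 FPKM in replicates 4 and 5 against 740.4 FPKM in replicates 1 and 2, and so did Npm2, at 39.6 against 48.6 FPKM, and by a small step Zp3, at 39.7 against 40.5 FPKM. In KD, the higher range holds replicate 4 alone, so the split has no spread there. Replicate 4 against the mean of replicates 1 and 2 was 27.6 against 26.2 FPKM for Gdf9, 5.64 against 4.21 FPKM for Nobox, 592 against 809 FPKM for Oosp1, 37.2 against 44.3 FPKM for Npm2 and 32.7 against 50.9 FPKM for Zp3, each in the direction of control. Zp1 had the reverse order in KD, 5.88 against 6.70 FPKM. With this split as a batch the log2 fold change of Gdf9 was −0.27 (limma adjusted p = 0.723).

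Markers of granulosa and cumulus cells, which surround the egg before fertilization, were looked up for the same libraries. The 14 genes of that list summed to 12.05, 6.72, 18.9 and 18.6 FPKM in 2-cell control and to 8.36, 12.1 and 10.1 FPKM in 2-cell KD. Amhr2 was the most abundant, at 8.60, 5.13, 17.1 and 16.9 FPKM in 2-cell control, and Tnfaip6 averaged 1.68 FPKM. The other 12 genes were below 1 FPKM there, and Fshr, Inha, Inhba and Ptx3 were at 0 in all 4 libraries. In later stages the sum was 4.08 to 6.72 FPKM, again almost all from Amhr2. Amhr2 was higher in 2-cell control replicates 4 and 5, as Zp1, Gdf9 and Nobox were, and its part in their levels was not tested. With KD limma called 0 of 2, 0 of 1 and 0 of 1 genes of this list in stage order, with 0 at an unadjusted p under 0.05 at any stage.

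In morulae, 3 members passed the filter, Zp3, Npm2 and Oosp1, and 0 were called by limma, where 3.59% of 10989 genes were called in either direction (395 genes). Of the 3, 0 had an unadjusted limma p under 0.05, against 30.5% of all genes tested. In the fit without the filter 2 of the 10 did, Gdf9 and Figla, and so did 16.4% of 32900 genes, so the count is near the background. KD means were higher for 9 members and lower for Figla. Scaling moves the median of all genes here, from 0.015 to −0.085 with FPKM as deposited and to −0.14 with libraries scaled to the same sum, so differences of that size carry no direction.

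Zp3 was at 4.97, 7.25 and 6.05 FPKM in morula KD, against 3.39 to 6.90 FPKM in control. The groups overlapped through control replicate 1, and the log2 fold change was 0.44 (SE 0.20, limma adjusted p = 0.166). Npm2 was at 3.04, 3.92 and 3.26 FPKM and Oosp1 at 1.90, 2.22 and 0.779 FPKM, each inside or beside its control range. Their log2 fold changes were 0.15 and 0.20, and that of Oosp1 ran from 0.029 without KD replicate 2 to 0.46 without KD replicate 6.

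Gdf9 was at 0.735, 0.639 and 1.05 FPKM in morula KD against 0.653, 0.550, 0.278 and 0.209 FPKM in control. KD replicates 1 and 6 lay above all controls, and replicate 2 just below control replicate 1. In the fit without a filter its log2 fold change was 0.41 (SE 0.15), with an unadjusted limma p of 0.0349 and an adjusted p of 0.259. Over 12 alternatives of that fit the log2 fold change ran from 0.14 to 0.98, and the limma adjusted p from 0.236 to 0.675. The interaction of stage and treatment for Gdf9, from a 2-cell difference of −0.32 to a positive one in the morula, was 0.71 (SE 0.25), with an unadjusted limma p of 0.0119 and an adjusted p of 0.184. Of 14605 genes in that interaction fit, 1.25% were called (182 genes), and of 9 members limma called 0, with 1 at an unadjusted p under 0.05, against 14.7% of all genes in the fit.

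Figla was the single member whose morula groups did not overlap. KD libraries were at 0, 0.0202 and 0.124 FPKM and control libraries at 0.173 to 0.411 FPKM, a ratio of means of 0.185. KD replicate 6 holds most of the KD mean, and without it the ratio was 0.0388. Among 32900 genes above 0 in morulae, 11.1% had every KD library below every control library (3655 genes) and 4.63% had every KD library above (1524 genes). The exact two-sided permutation test gave p = 0.0286, the smallest value it can give, and in the fit without a filter the log2 fold change was −0.25 (SE 0.082, limma adjusted p = 0.199). In blastocysts the groups of Figla overlapped, at 1.41, 0.715, 0.102 and 0.461 FPKM in KD against 0.0897 to 0.683 FPKM in control.

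The other morula levels were low in both groups. Zp1 was at 0.1002 to 0.126 FPKM in KD and Zp2 at 0.119 to 0.293 FPKM. Bmp15 was at 0.333 to 0.597 FPKM and H1foo at 0.243 to 0.644 FPKM. Nobox was at 0.0496, 0.0627 and 0 FPKM.

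In blastocysts, Zp3 alone passed the filter and limma did not call it, so 0 of 1 member was called where 13.9% of 11828 genes were called in either direction (1640 genes). Of that 1 member, 0 had an unadjusted limma p under 0.05, against 46.0% of all genes tested. Without the filter 3 of the 10 did, Npm2, Bmp15 and Zp2, and so did 24.7% of 34540 genes, so the count is near the background. Zp3 libraries were at 4.05, 2.93, 0.538 and 1.52 FPKM in KD and at 1.08 to 1.84 FPKM in control. KD replicates 1 and 4 lay above all controls and replicate 5 below all of them, and the log2 fold change was 0.29 (SE 0.32, limma adjusted p = 0.514). With single libraries left out it ran from 0.016, without KD replicate 1, to 0.63, without KD replicate 5, where the unadjusted limma p was 0.0253 and the adjusted p 0.0684, and it was 0.14 without KD replicate 4. KD means were higher for 8 members and lower for Zp1 and Zp2.

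Npm2 and Bmp15 were the members whose blastocyst groups did not overlap, both with KD higher. Npm2 was at 0.623, 0.935, 0.717 and 0.631 FPKM in KD against 0.0873, 0.294, 0.109 and 0.237 FPKM in control. Bmp15 was at 0.252, 0.188, 0.544 and 0.186 FPKM in KD against 0.138, 0.0440, 0 and 0.0177 FPKM in control. The KD mean was 3.998 times the control mean for Npm2 and 5.87 times for Bmp15, and for Bmp15 the highest KD library, replicate 5, stood well above the others. The Bmp15 ratio was 14.2 without control replicate 1, which holds most of the control sum, and 4.18 without KD replicate 5. Among 34540 genes above 0 in blastocysts, 8.41% had every KD library above every control library (2906 genes) and 9.49% every KD library below (3277 genes).

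The exact two-sided permutation test gave p = 0.0286 for Npm2 and for Bmp15, the smallest value that 4 against 4 libraries allow. This test was run for 30 pairs of a member and a stage, of which 3 reached that value, and none of these p-values was adjusted. In the limma fit without a filter, where p-values are adjusted over 34540 genes, Npm2 had a log2 fold change of 0.55 (SE 0.11, adjusted p = 0.0176) and Bmp15 of 0.28 (SE 0.082, adjusted p = 0.0696). The fold threshold was therefore not met. With no filter and an added constant of 0.1, choices changed together after the values were seen, Npm2 reached a log2 fold change of 1.62 (limma adjusted p = 0.0186) and would be called, and Bmp15 reached 1.36 (limma adjusted p = 0.0534). Over 13 alternatives of the unfiltered fit, the log2 fold change of Bmp15 ran from 0.21 to 1.36. Its limma adjusted p ran from 0.0534 to 0.157.

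The adjusted p of Npm2 in unfiltered fits ran from 0.0156 to 0.0523 over 13 alternatives. It passed 0.05 with the replicate number as a block (0.0511), without control replicate 1 (0.0523) and without control replicate 5 (0.0513). Every blastocyst value of Npm2 is below 1 FPKM, and KD blastocysts held 1.73% of the KD 2-cell mean, against 0.412% in control. The difference of the KD effect between morula and blastocyst was 0.37 for Npm2 (SE 0.25, limma adjusted p = 0.352). It was 0.75 with libraries scaled to the same sum (limma adjusted p = 0.0689) and 1.37 with a constant of 0.1 (limma adjusted p = 0.0544). This was a fit where 7.71% of 12727 genes were called (981 genes) and 0 of 3 members, with 0 at an unadjusted limma p under 0.05, against 27.3% of all genes. In that fit the median of all genes was −0.0085, and it moved to 0.27 with libraries scaled to the same sum and to 0.11 with FPKM as deposited.

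Zp2 went the other way in blastocysts. Its KD libraries were at 0.0268, 0, 0.122 and 0.0937 FPKM against 0.161, 0.345, 0.0834 and 0.317 FPKM in control, and KD replicates 5 and 6 overlapped control replicate 5. Without a filter its log2 fold change was −0.21 (SE 0.074), with an unadjusted limma p of 0.0231 and an adjusted p of 0.125. Over alternatives that adjusted p ran from 0.0412, without control replicate 5, to 0.241.

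The last members were near the floor of the table in blastocysts. Gdf9 was at 0.0696, 0.201, 0.281 and 0.199 FPKM in KD and H1foo at 0.0784, 0.251, 0.141 and 0.573 FPKM. Oosp1, at 0.381, 0.0639, 0.580 and 0.292 FPKM, overlapped its controls fully. Zp1 reached at most 0.0879 FPKM and Nobox at most 0.0759 FPKM in the 4 KD libraries.

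**Figure D2:**
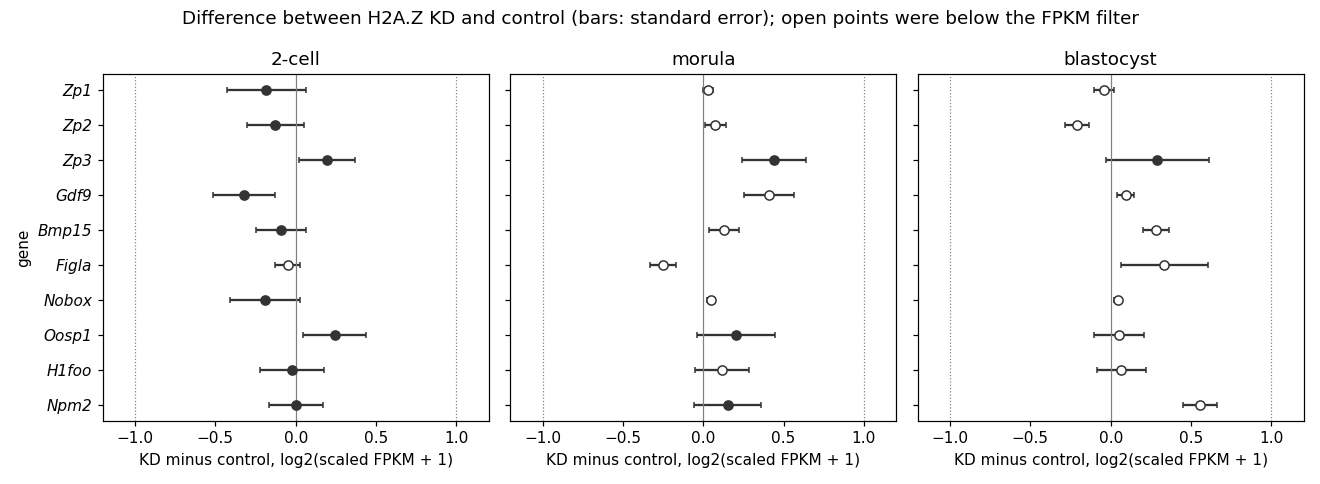
Difference between H2A.Z KD and control for each oocyte gene on the log2 scale of scaled FPKM with 1 added, by stage, with the standard error as bars, open points for genes under the FPKM filter and dotted lines at −1 and 1. No point lies beyond the dotted lines, the lowest is Gdf9 at the 2-cell stage (−0.32), and the highest is Npm2 in blastocysts (0.55).

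Markers of the 2-cell embryo were summed in the blastocyst groups too. Their sum was 3.08 to 13.98 FPKM in KD blastocysts against 0.291 to 0.964 FPKM in control, with none of the 5 genes at 0 in KD. Zfp352, the most abundant in 3 of the 4 KD libraries, was called higher, with a log2 fold change of 1.57 (SE 0.29, limma adjusted p = 0.00156), the single gene of the list that could be tested, which it was through its KD level. At the 2-cell stage limma called 0 of the 5 and in morulae 0 of 2, with 0 and 1 at an unadjusted p under 0.05, and Zscan4d, a further member of the list, fell from 40.5 FPKM in 2-cell control to 0.233 FPKM in morula control. The blastocyst lineage markers summed to 80.3 to 135 FPKM in KD morulae and 167 to 274 FPKM in control morulae, without overlap. In blastocysts they summed to 688 to 984 FPKM in KD and 1087 to 1583 FPKM in control. Krt18 carries that gap, at 329 to 461 against 646 to 992 FPKM, and the other 7 genes summed to 319 to 585 FPKM in KD and 359 to 665 FPKM in control, which overlap. Of the 8 genes, limma called 1 of 6 lower in blastocysts, Krt18 (log2 fold change −1.02), 1 of 4 lower in morulae, Nanog (−2.23), and 0 of 2 at the 2-cell stage, where 0 had an unadjusted p under 0.05 and Gata4 was the most abundant at 4.85 ± 4.31 FPKM. At an unadjusted limma p under 0.05 were 2 of 6 in blastocysts and 2 of 4 in morulae. The call of Nanog was lost without the filter (limma adjusted p = 0.0718), and that of Krt18 with libraries scaled to the same sum (−0.91) and without control replicate 4 (−0.93), KD replicate 5 (−0.98) or KD replicate 6 (−0.93). Control and KD blastocysts were taken at the same hour, and the part of these shifts in the levels of Npm2 and Bmp15 was not tested. The paper reports that KD reduced blastocyst formation, so the KD libraries of this stage come from a group whose embryos reached it less often.

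Genes that work with the members give the setting. Over all genes tested with KD, 5.76%, 30.5% and 46.0% had an unadjusted limma p under 0.05 in stage order, and the list counts at that p are to be read against these shares. Oocyte transcription regulators were a list of 8 genes, of which limma called 0 of 6 at the 2-cell stage, 0 of 2 in morulae and 1 of 3 in blastocysts, with 0, 0 and 3 at an unadjusted p under 0.05. The one called was Sohlh2, a helix-loop-helix factor of early oocytes, at 0.291 ± 0.0694 FPKM in KD against 1.99 ± 1.04 FPKM in control (log2 fold change −1.13, limma adjusted p = 0.00178), and it was tested through its control level. Taf4b averaged 25.7 FPKM and Foxo3 14.5 FPKM in 2-cell control, and 4 of the 6 tested regulators fell to the morula, with a median log2 fold change of −2.30. In KD blastocysts the log2 fold change was 0.59 for Taf4b (limma adjusted p = 0.0322) and 0.79 for Foxo3 (limma adjusted p = 0.0140), both short of the fold threshold.

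Other oocyte surface and secreted genes were counted beside Oosp1 and the zona genes. Of the 7 found in the table, 5 were tested between the 2-cell stage and the morula, where 4 fell and 1 rose, with a median log2 fold change of −1.46. Oosp3, of the same family as Oosp1, went from 499.8 ± 70.6 FPKM in 2-cell control to 0.650 ± 0.302 FPKM in morula control, and Cd9, a membrane protein needed for sperm and egg to fuse, rose from 105 ± 11.8 to 1081 ± 75.0 FPKM. In the KD comparisons limma called 0 of 6, 0 of 2 and 0 of 2 of this list, in stage order, and 0 were at an unadjusted p under 0.05.

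Receptors and effectors of GDF9 and BMP15 made a list of 11 genes. In control embryos 4 of 7 tested fell to the morula, among them Bmpr2, the type II receptor of both ligands, from 6.58 ± 0.685 to 0.627 ± 0.120 FPKM. Smad2, which carries the GDF9 signal, was at 8.66 ± 3.85 FPKM in 2-cell control and 16.8 ± 1.40 FPKM in morula control. With KD limma called 0 of 8, 0 of 4 and 0 of 3, in stage order, with 1, 1 and 0 at an unadjusted p under 0.05.

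Relatives of Npm2 and H1foo were counted in the same way. In the list of 11 nucleoplasmins and linker histones, 4 were tested between the 2-cell stage and the morula, where 2 rose and limma called 0 lower, with 3 at an unadjusted p under 0.05 in either direction. Over all 13655 genes tested at this step, 84.1% had an unadjusted limma p under 0.05. Npm1 went from 426 ± 118 FPKM in 2-cell control to 2300 ± 51.4 FPKM in morula control, and H1f0 from 4.72 ± 0.480 to 6.37 ± 1.90 FPKM. KD calls by limma were 0 of 4, 0 of 5 and 0 of 7, in stage order, with 0, 1 and 2 at an unadjusted p under 0.05.

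Maternal gene lists were followed over the same step. As in the other lists, a gene below 1 FPKM in morulae was tested through its 2-cell level, so a fall was the direction open to it. All 12 tested genes of the maternal mRNA storage and clearance list fell to the morula, with Btg4, an adaptor for removal of poly(A) tails, going from 750.1 ± 381 to 1.09 ± 0.677 FPKM and Cnot7, a deadenylase, from 154 ± 10.5 to 34.1 ± 8.06 FPKM. In the subcortical maternal complex list 5 of 7 fell, with Zbed3 going from 897 ± 247 to 0.585 ± 0.390 FPKM. Khdc3, named after its values were seen, rose from 7.78 ± 2.86 to 253 ± 75.1 FPKM (log2 fold change 4.85, limma adjusted p = 9.73e-09), and Padi6 was not called, at 12.1 ± 4.61 and 9.66 ± 0.778 FPKM (log2 fold change −0.25, limma adjusted p = 0.252). The median log2 fold change was −2.17 for the first list and −1.76 for the other, against −3.45 for the members and 0.097 for all genes. These medians depend on the same filter and on the constant of 1, so they too are descriptions. With KD limma called 0 of 13, 0 of 5 and 0 of 5 genes of the storage list, in stage order, with 1, 0 and 1 at an unadjusted p under 0.05. Of the complex list it called 0 of 7 at the 2-cell stage, 1 of 4 in morulae and 1 of 3 in blastocysts, with 0, 2 and 2 at an unadjusted p under 0.05. In KD blastocysts Padi6 had a log2 fold change of 0.67 (limma adjusted p = 0.00566), short of the fold threshold. The gene called at both later stages was Ooep, a component of the egg cortex. Ooep was at 0.488 ± 0.279 FPKM in KD morulae against 2.68 ± 0.728 FPKM in control (log2 fold change −1.24, limma adjusted p = 0.00761, and 0.0606 without the filter) and at 2.30 ± 0.879 against 36.5 ± 5.17 FPKM in blastocysts (−3.53, limma adjusted p = 1.48e-06). Ooep thus rose between morula and blastocyst in control, a course none of the tested members took.

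Position and structure of the members were read from the annotation. On the mouse assembly GRCm38, Zp1 (chr19:10914287-10920632) and Oosp1 (chr19:11667460-11691150) share chromosome 19, both on the minus strand, and Figla (chr6:86016171-86020996), Nobox (chr6:43303674-43309554) and H1foo (chr6:115944938-115950236) share chromosome 6. The others are Zp2 (chr7:120126772-120145291), Zp3 (chr5:135980099-135988624), Gdf9 (chr11:53431023-53437904), Bmp15 (chrX:6314107-6320721) and Npm2 (chr14:70647302-70659244). Npm2 overlaps Xpo7 on the same strand. The level of Xpo7 was 0.360 to 0.425 FPKM in blastocyst control and 0.318 to 0.630 FPKM in blastocyst KD, groups that overlap. The part of Xpo7 in the level of Npm2 was not tested.

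Short 3′ untranslated regions were common among them. The median length was 178 bases over the 10 members, against 796 bases over 20175 protein-coding genes and 757 bases over the 3575 of these with at least 10 FPKM in 2-cell control. Zp3 has 13 bases, Zp1 34 and Zp2 49, while Bmp15 has 1523. The cytoplasmic polyadenylation element, searched as TTTTAT or TTTTAAT on the transcript strand in the last 100 bases, was present in 2 of the 10, Gdf9 and H1foo, in 16.8% of all protein-coding genes and in 21.4% of those with at least 10 FPKM in 2-cell control. A match is a description of letters and not evidence of binding.

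Promoter sequences were examined because Figla acts on the zona genes through E-boxes, with the letters CANNTG. A link between these sequences and the fall of the members was not tested. RefSeq windows on GRCm38.p6 were found for 6 members, Zp3, Bmp15, Figla, Nobox, Oosp1 and H1foo, and not for Zp1, Zp2, Gdf9 and Npm2. In the 250 bases before the start, all 6 held CANNTG at least once, as did 66.2% of 32851 windows of this length. Oosp1 held it 5 times (5 or more in 1.15% of windows), Zp3 3 times (3 or more in 12.2%), Figla and Nobox each 2 times (2 or more in 31.8%), and Bmp15 and H1foo 1 time each. CANNTG reads the same on both strands, and overlapping matches were allowed. TAATTA, also its own reverse complement, was found in Bmp15 alone and in 4.84% of windows, and TAATTG on either strand in 0 of the 6 and in 7.17% of windows. All 250 bases of the Figla window and 99 of the Oosp1 window lie inside the annotated genes, and these windows are given by their counts alone. The Oosp1 matches at −93, −59 and −48 lie in those 99 bases, and those at −249 and −194 lie before the annotated gene. The Oosp1 count is therefore not one of upstream sequence alone. The Zp3 window ends 6 bases inside its gene.

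Windows of a zona gene, a ligand gene and a transcription factor gene follow, 5′ to 3′ on the strand of the gene, with capitals at each CANNTG. They are Zp3 at chr5:135979855-135980104 (plus strand), Bmp15 at chrX:6320725-6320974 (minus strand) and Nobox at chr6:43309555-43309804 (minus strand). A match does not show that a factor binds there.
Zp3: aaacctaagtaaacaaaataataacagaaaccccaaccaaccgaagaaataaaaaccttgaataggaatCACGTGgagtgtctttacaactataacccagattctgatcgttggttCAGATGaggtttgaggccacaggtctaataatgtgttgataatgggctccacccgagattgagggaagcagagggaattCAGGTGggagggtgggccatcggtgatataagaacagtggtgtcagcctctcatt
Bmp15: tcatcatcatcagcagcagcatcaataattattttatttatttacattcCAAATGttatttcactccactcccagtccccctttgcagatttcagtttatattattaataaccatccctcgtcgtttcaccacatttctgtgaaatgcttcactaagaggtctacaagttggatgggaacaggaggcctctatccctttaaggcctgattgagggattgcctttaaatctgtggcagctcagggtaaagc
Nobox: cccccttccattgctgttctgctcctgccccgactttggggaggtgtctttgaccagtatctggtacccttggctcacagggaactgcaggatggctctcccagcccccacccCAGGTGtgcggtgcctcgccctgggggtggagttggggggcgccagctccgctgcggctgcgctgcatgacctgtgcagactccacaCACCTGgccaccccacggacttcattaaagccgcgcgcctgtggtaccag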

How the data were processed

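The authors aligned reads to mm10 with STAR, quantified genes with StringTie 2.1.4 and deposited FPKM, normalised for length and library total. Their own differential calls used DESeq2 1.30.1, which was not used here. From the FPKM, values were divided by a median-of-ratios factor within each comparison, 1 was added and log2 taken. Genes reaching 1 FPKM in 3 or more libraries of the comparison were tested with limma 3.58.1 (lmFit, eBayes with trend) in R 4.3.3, with Benjamini-Hochberg adjustment over all genes tested, for KD against control at each stage, for successive stages in control, and for the interaction of stage and treatment. Single members were compared by exact two-sided permutation tests of mean log2(FPKM + 1). Alternatives were FPKM as deposited, scaling of libraries to the same sum, an added 0.1, no filter, a replicate block, low against high replicate numbers as a batch, and each library left out. Fits with no filter and one of the other alternatives together were added after the values were seen. Annotation was GENCODE vM21 (GRCm38), with 54587 of 55335 identifiers matched in the same version, and promoters were from RefSeq. Python 3.11.15, numpy 2.4.6, pandas 2.3.3 and matplotlib 3.10.9 made the tables and figures.

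Named genes were all 10 members, with H2afz and H2afv, the genes that encode H2A.Z, as the check of the knockdown. Of each other list, the 2 highest in 2-cell control and any called in a KD comparison were named. The 5 genes most like the members over all libraries were named too. Outside this rule, and with values already known, Khdc3, Xpo7 and the granulosa markers at 0 are also named. The lists were oocyte transcription regulators, oocyte surface and secreted genes, GDF9 and BMP15 receptors and effectors, nucleoplasmins and linker histones, subcortical maternal complex, maternal mRNA storage and clearance, granulosa and cumulus cell markers, 2-cell markers, blastocyst lineage markers, knockdown target and widely used genes; results for the widely used genes are left out of the report. The members and lists were chosen with earlier results of these data known.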

Additional observations from a re-analysis of the deposited data

Results flagged for a closer look

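In each group of 4 libraries the highest and the lowest value of each member were compared with the nearest other value, over 40 groups, and chance alone picks out about 1 in 20 such groups. A library far from the others was found in 3. Zp1 was at 0.222 FPKM in blastocyst control replicate 4, with the next library at 0.0274 FPKM. Nobox was at 0.0183 FPKM in morula control replicate 7 and at 0.0154 FPKM in blastocyst control replicate 1, with the other 3 libraries of each group listed at 0. Any value above 0 would have been picked out in these 2 groups, so they say nothing of its size. All of these values are below 1 FPKM, and their cause was not tested.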

How the results depend on the processing

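The number of members called kept within 1.5 times its value in all 101 alternatives run for the 7 comparisons, and limma called 0 members in every KD and interaction comparison with the filter. Among single genes, 1013 alternatives kept direction and side of the thresholds (for ratios of means and shares of the 2-cell mean, moved by less than the spread between libraries), 5 gained a call, 6 lost one, 32 changed sign and 3 ratios or shares moved further, that of Bmp15 in blastocysts and those of Figla; the cause was not tested. Sign changes outside library removal were near 0: H1foo at the 2-cell stage with the range batch (0.020), Figla there with no filter and a block (0.011), the Oosp1 interaction of morula and 2-cell with 0.1 added (0.066), and, with libraries scaled to the same sum, the blastocyst and morula interactions of Zp3 (0.050) and Oosp1 (0.019). Leaving out single libraries gave KD ranges at the 2-cell stage of −0.48 to −0.23 (Gdf9), −0.36 to −0.053 (Zp1), −0.33 to −0.084 (Nobox), −0.21 to −0.050 (Zp2), 0.14 to 0.37 (Oosp1), 0.075 to 0.38 (Zp3), −0.17 to 0.025 (Bmp15), −0.14 to 0.12 (H1foo), −0.084 to 0.076 (Npm2) and, unfiltered, −0.10 to 0.011 (Figla). In morulae Npm2 ran from −0.013 to 0.26 and Zp3 from 0.32 to 0.59. In unfiltered blastocyst fits Zp1 ran from −0.073 to 0.020, Oosp1 from −0.033 to 0.15 and H1foo from −0.045 to 0.16. Interactions of morula and 2-cell ran from −0.24 to 0.19 (Oosp1), −0.027 to 0.23 (H1foo) and −0.020 to 0.25 (Npm2), and those of blastocyst and morula from −0.45 to 0.16 (Zp3) and −0.43 to 0.012 (Oosp1). An unadjusted limma p under 0.05 appeared for Gdf9 at the 2-cell stage without control replicate 2 (0.0153), for Zp3 there without KD replicate 4 (0.0418) and in morulae without control replicate 1 (0.0168) or KD replicate 1 (0.0232), and for the blastocyst and morula interaction of Npm2 with FPKM as deposited (0.0457), the same sum (0.0119), 0.1 added (0.0059) or morula control replicate 1 left out (0.0265). Ratios of means and shares without single libraries were added after the values were seen. Deviations from the group means correlated between same-numbered control and KD libraries at 0.0147 to 0.214 over 3 pairs of 2-cell libraries (mean 0.146, against −0.0487 for other pairs), 0.0943 to 0.181 over 2 of morulae (mean 0.138, against −0.0281) and −0.110 to 0.353 over 4 of blastocysts (mean 0.0825, against −0.0288), and with pairs near or below 0 among them the numbers were not taken to pair the libraries. In morulae every pair within a range of numbers, 1 and 2 or higher, was above 0 (0.0943 to 0.346) and every pair across ranges below 0 (−0.278 to −0.0944), and the batch term above follows these ranges; a replicate block called 0 genes at the 2-cell stage, 220 up and 301 down in morulae and 726 up and 920 down in blastocysts, with 0 members.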
